A study of Mus musculus with 12 samples.

Results

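The kidney genes of klotho signalling, vitamin D metabolism and calcium and magnesium transport were described across 12 mice. The set holds 10 genes of the 57490 in the deposited count table, which were chosen by gene name for their roles. It comprises Kl and Fgfr1 of klotho signalling, Vdr, Cyp27b1 and Cyp24a1 of vitamin D metabolism, Trpv5, Calb1, S100g and Slc8a1 of calcium transport, and Trpm6 of magnesium transport. All 10 were found in the table and all 10 passed the filter on low counts, so that each was among the 17431 genes tested.

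The study asked how the kidney transcriptome differs between diabetic and non-diabetic mice, and between diabetic mice with and without Yiqi Huoxue Yangyin Decoction (YHY), a multi-herb water extract given by mouth. Male mice were used throughout, 4 in each of 3 groups, and each library came from 1 mouse. The Model and YHY mice were db/db animals of the strain BKS.Cg-Dock7m +/+ Leprdb/JNju, which lack a working leptin receptor, and were selected on their random blood glucose after acclimatisation. The Ctrl mice were age-matched heterozygotes on the BKS background, labelled db/m and wild-type. The animals arrived at 8 weeks of age and were 13 weeks old at sampling. YHY mice received the extract at 6.24 g/mL by gavage, once a day for 4 weeks at 50 µL for every 10 g of mouse, whereas Ctrl and Model mice received the same volume of purified water. Which of several doses the sequenced mice had received is not given in the sources used here. The tissue is labelled whole kidney, while the design text of the series names the renal cortex.

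Klotho, the product of Kl, is made chiefly in the distal tubule, and also in the proximal tubule, and joins the receptor FGFR1 to form the binding site for the bone hormone FGF23, which makes the kidney excrete phosphate and lowers the supply of active vitamin D. Active vitamin D is made in the proximal tubule by CYP27B1, is broken down by CYP24A1, and acts through its nuclear receptor VDR, of which Cyp24a1 is a classic target gene. In the distal convoluted and connecting tubules calcium enters cells through TRPV5, is carried by calbindins and leaves through the exchanger SLC8A1, and magnesium enters through TRPM6.

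Polyadenylated RNA was sequenced, and reads were counted per gene. Total counts ran from 29632718 to 33276634 in Ctrl, from 24415658 to 29784346 in Model and from 25149764 to 29698342 in YHY. Transcripts of the mitochondrial genome made up 19.5% ± 2.12 of the Ctrl counts, 52.2% ± 7.68 of the Model counts and 56.8% ± 5.21 of the YHY counts (SD, n = 4), without overlap between Ctrl and the db/db groups. Levels are therefore given as CPM, read counts relative to library size, after scaling by the trimmed mean of M-values (TMM), whose factors ran from 1.08 to 1.35 in Ctrl, from 0.797 to 1.04 in Model and from 0.72 to 1.04 in YHY. A count of 3, taken as the limit of detection, equalled 0.0683 to 0.166 CPM, and each of the 10 genes was above it in every mouse. Taking library size alone moved the median log2 fold change of all genes by −0.43 in Model against Ctrl and likewise by −0.43 in YHY against Ctrl. It also lowered the share of higher genes among those called from 51.5% to 21.4% in the former and from 51.9% to 28.4% in the latter. Upper-quartile factors moved the same medians by 0.10 and 0.12.

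Group differences were tested with edgeR's quasi-likelihood test in 1 fit of all 12 mice, with Benjamini-Hochberg adjustment over 17431 genes, and a gene was called at an adjusted P under 0.05. Fgfr1, Cyp27b1 and Trpm6 rose in Model against Ctrl, 3 of the 10 genes beside 19.6% of all genes tested, and Kl fell, 1 of 10 beside 18.5%. Kl and Vdr fell in YHY against Model, 2 of the 10 genes beside 7.62% of all genes. By edgeR 0 of the 10 rose in that comparison, beside 5.63% of all genes. DESeq2 also called 0 of the 10 higher, beside 1434 higher genes among all, with 18.0% called in either direction. With the limits of the paper instead, where a gene needs a fold change beyond 1.2 and an unadjusted P below 0.05, edgeR gave 1 gene higher, Cyp27b1 (13.9% of all genes), and 4 lower, Kl, Vdr, Calb1 and S100g (14.7% of all genes). YHY against Ctrl, which shares its groups with both other comparisons, gave 3 higher genes, Fgfr1, Cyp27b1 and Trpm6 (26.1% of all genes), and 2 lower, Kl and Vdr (24.2%). The shares of called genes were thus of the same order as the background in both comparisons with Ctrl, and nothing particular to the set is read from them.

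The number of genes called depended on single mice. In Model against Ctrl 4 were called with all mice, beside 38.04% of all genes, and 2 without Model 2, without Model 3 or without Model 4, beside 29.3%, 30.5% and 29.8%. The number was 3 without each Ctrl mouse in turn (30.5% to 34.4% of all genes) and 5 without YHY 4 (39.9%). In YHY against Model the 2 called with all mice (13.3% of all genes) became 1 without Ctrl 1, Ctrl 2, Ctrl 3, Model 1 or YHY 1 (8.72% to 12.2%), 3 without YHY 2 (9.82%) and 4 without YHY 4 (15.3%). Without Model 2 or without Model 3 edgeR called 0, beside 9.84% and 6.34% of all genes, although Kl and Vdr kept their direction. Losses among the 10 genes came with fewer calls among all genes, but so did the gain without YHY 2. The median log2 fold change of the 10 genes was 0.59 in Model against Ctrl, −0.45 in YHY against Model and −0.11 in YHY against Ctrl, beside 0.04, 0.02 and 0.10 for all genes tested. Groups did not overlap for 3 of the 10 genes in Model against Ctrl (40.2% of all genes), for 1 in YHY against Model (16.1%) and for 5 in YHY against Ctrl (44.6%).

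**Figure D1:**
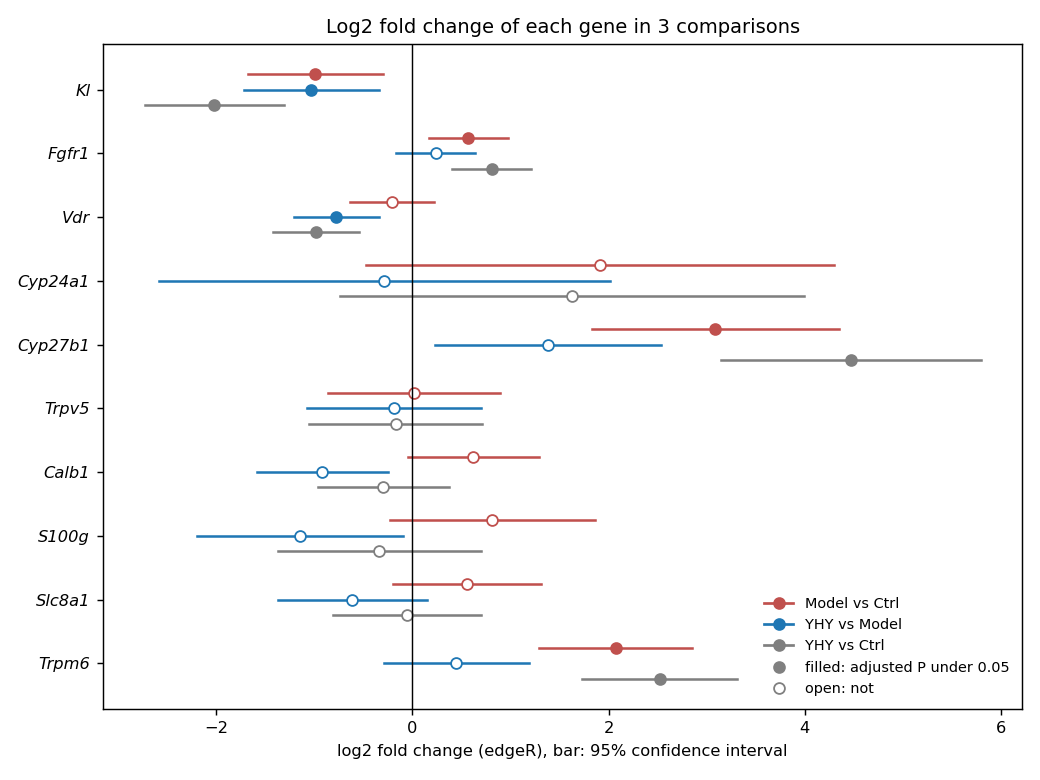
Log2 fold change of each gene in 3 comparisons, with the 95% confidence interval from edgeR as a bar and a filled point where the adjusted P was under 0.05. Cyp27b1 lies farthest to the right (3.09 for Model and 4.47 for YHY, each against Ctrl), Kl lies to the left in each comparison, and the bars of Cyp24a1 are the widest (−0.47 to 4.30 in Model against Ctrl).

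Promoter sequences are shown for Kl, Vdr, Cyp27b1 and Trpm6, the called genes with an entry in the RefSeq promoter table (GRCm38.p6), because vitamin D acts on its target genes through VDR bound near them. The table matched 7 of the 10 genes, and Fgfr1, Cyp24a1 and Calb1 had no entry. Each run is the 250 bases before the transcription start, 5′ to 3′ on the strand of the gene, for Kl at chr5:150952357-150952606 (strand +), for Vdr at chr15:97908297-97908546 (strand −), for Cyp27b1 at chr10:127047996-127048245 (strand +) and for Trpm6 at chr19:18749480-18749729 (strand +). These windows are on GRCm38, whereas the gene positions given with the levels are on GRCm39, the build in the submitters' processing notes.
Kl: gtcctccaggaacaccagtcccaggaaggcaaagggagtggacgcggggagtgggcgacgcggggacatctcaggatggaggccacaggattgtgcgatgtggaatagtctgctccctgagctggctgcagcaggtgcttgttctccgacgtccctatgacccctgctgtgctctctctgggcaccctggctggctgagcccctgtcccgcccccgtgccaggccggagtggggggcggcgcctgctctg
Vdr: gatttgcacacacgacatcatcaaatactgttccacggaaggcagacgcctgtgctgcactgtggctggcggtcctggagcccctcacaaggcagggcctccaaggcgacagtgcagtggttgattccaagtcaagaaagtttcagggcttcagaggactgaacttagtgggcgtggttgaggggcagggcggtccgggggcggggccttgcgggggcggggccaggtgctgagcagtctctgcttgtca
Cyp27b1: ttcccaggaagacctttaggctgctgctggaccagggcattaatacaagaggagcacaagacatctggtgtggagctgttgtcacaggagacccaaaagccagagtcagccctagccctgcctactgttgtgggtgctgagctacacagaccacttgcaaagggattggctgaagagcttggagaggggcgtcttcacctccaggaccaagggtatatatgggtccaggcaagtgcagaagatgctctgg
Trpm6: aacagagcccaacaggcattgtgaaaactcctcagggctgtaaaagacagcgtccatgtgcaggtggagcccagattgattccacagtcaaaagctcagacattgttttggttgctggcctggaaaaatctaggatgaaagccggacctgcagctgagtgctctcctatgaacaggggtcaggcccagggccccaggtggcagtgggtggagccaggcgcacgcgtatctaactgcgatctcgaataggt
These windows were searched on both strands for a direct repeat of the half-sites AGGTCA or AGTTCA or GGGTCA or GGTTCA with a spacer of NNN between them, a letter pattern of VDR elements. It was found in 0 of the 7 promoters and in 13 of all 32851 promoters of that length (0.0396%), so all letters stand in lower case. The absence says only that these letters are not in these windows. GC content was 66.8% for Kl, 61.2% for Vdr, 54.4% for Cyp27b1 and 54.4% for Trpm6, beside a median of 52.4% over all promoters.

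Kl (ENSMUSG00000058488, chr5:150876072-150917282, strand +) encodes the co-receptor of FGF23. Its level was 404, 536, 419 and 300.0 CPM in Ctrl 1 to 4, 317, 173, 211 and 133 CPM in Model 1 to 4, and 49.9, 119.5, 75.0 and 164 CPM in YHY 1 to 4. The groups lay in steps, with Model 1 just above the lowest Ctrl mouse and YHY 4 among the lower Model mice, and every YHY mouse below every Ctrl mouse. Group means were 415 ± 96.4, 209 ± 78.8 and 102 ± 50.5 CPM (SD, n = 4). Kl fell in Model against Ctrl with a log2 fold change of −0.99 (SE 0.33, 95% confidence interval −1.68 to −0.30, edgeR adjusted P = 0.0247), with 3 of 4 Model mice below the lowest Ctrl mouse and an exact permutation P of 0.0571. It fell further in YHY against Model with −1.03 (SE 0.33, −1.72 to −0.34, edgeR adjusted P = 0.0476), again with 3 of 4 mice below the lowest Model mouse and an exact permutation P of 0.0571. The treated mice were thus farther from Ctrl than the untreated diabetic mice were, at −2.02 in YHY against Ctrl (SE 0.33, edgeR adjusted P = 0.000129), with 4 of 4 mice below the lowest Ctrl mouse. Fewer cells of a type and less RNA per cell cannot be told apart in whole tissue, here or for the genes that follow.

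The Kl call in both planned comparisons depended on single mice and on some settings, while its direction was the same in all fits. In Model against Ctrl the log2 fold change was −0.85 without Ctrl 2, −0.91 without Model 2, −0.998 without Model 3 and −0.83 without Model 4, and edgeR's adjusted P was then 0.0698, 0.0732, 0.0550 and 0.0814. Across all alternatives that adjusted P ran from 0.000972 to 0.0814. For YHY against Model the call held in 3 of 12 fits that left out 1 mouse. Ctrl mice bear on this comparison only through the shared scaling, filter, fit and adjustment. The log2 fold change was −1.06, −1.03 and −1.06 without Ctrl 1, 2 and 3, with edgeR's adjusted P at 0.0538, 0.0507 and 0.0542. It was −0.77 without Model 1, −1.11 without Model 2 and −1.03 without Model 3, with edgeR's adjusted P at 0.140, 0.0604 and 0.102. Model 1, the Model mouse with the highest Kl, gave the smallest value when left out, and the sign was kept without it. Without YHY 1, YHY 2 and YHY 3 the log2 fold change was −0.80, −1.12 and −0.91, and edgeR's adjusted P was 0.102, 0.0675 and 0.113. Fitting only the 8 mice compared gave −0.99 (edgeR adjusted P = 0.0834), within a range from 0.00273 to 0.140 over all alternatives.

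Fgfr1 (ENSMUSG00000031565, chr8:26003670-26065734, strand +) encodes the receptor kinase that binds FGF23 together with klotho, and in the diabetic mice it moved opposite to Kl. Its level was 23.4, 32.02, 29.6 and 27.0 CPM in Ctrl 1 to 4, 36.3, 40.6, 43.3 and 45.8 CPM in Model 1 to 4, and 52.5, 69.8, 36.9 and 37.0 CPM in YHY 1 to 4. All db/db mice were above all Ctrl mice, and the YHY mice divided into a higher pair, YHY 1 and YHY 2, and a lower pair within the Model range. Means were 28.0 ± 3.67, 41.5 ± 4.06 and 49.0 ± 15.6 CPM (SD, n = 4). Fgfr1 rose in Model against Ctrl with a log2 fold change of 0.57 (SE 0.19, 0.17 to 0.97, edgeR adjusted P = 0.0273), in 4 of 4 mice and with an exact permutation P of 0.0286, the smallest that 4 against 4 allows. The difference of 0.24 in YHY against Model did not pass (edgeR adjusted P = 0.442) and was 0.02 without YHY 2, while YHY against Ctrl gave 0.81 (edgeR adjusted P = 0.0023) with 4 of 4 mice above the highest Ctrl mouse.

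The Fgfr1 call in Model against Ctrl was lost in 6 of 12 fits that left out 1 mouse, with the direction kept. The log2 fold change was 0.44 without Ctrl 1, 0.54 without Ctrl 3 and 0.50 without Ctrl 4, with edgeR's adjusted P at 0.117, 0.0647 and 0.0815. It was 0.58 without Model 2, 0.55 without Model 3 and 0.52 without Model 4, with edgeR's adjusted P at 0.0527, 0.0647 and 0.0748. Scaling mattered more than any mouse, since library size alone gave 0.14 (edgeR adjusted P = 0.580, in a range from 0.00335 to 0.580). With that scaling YHY against Ctrl was 0.35 and was not called either (edgeR adjusted P = 0.135).

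**Figure D2:**
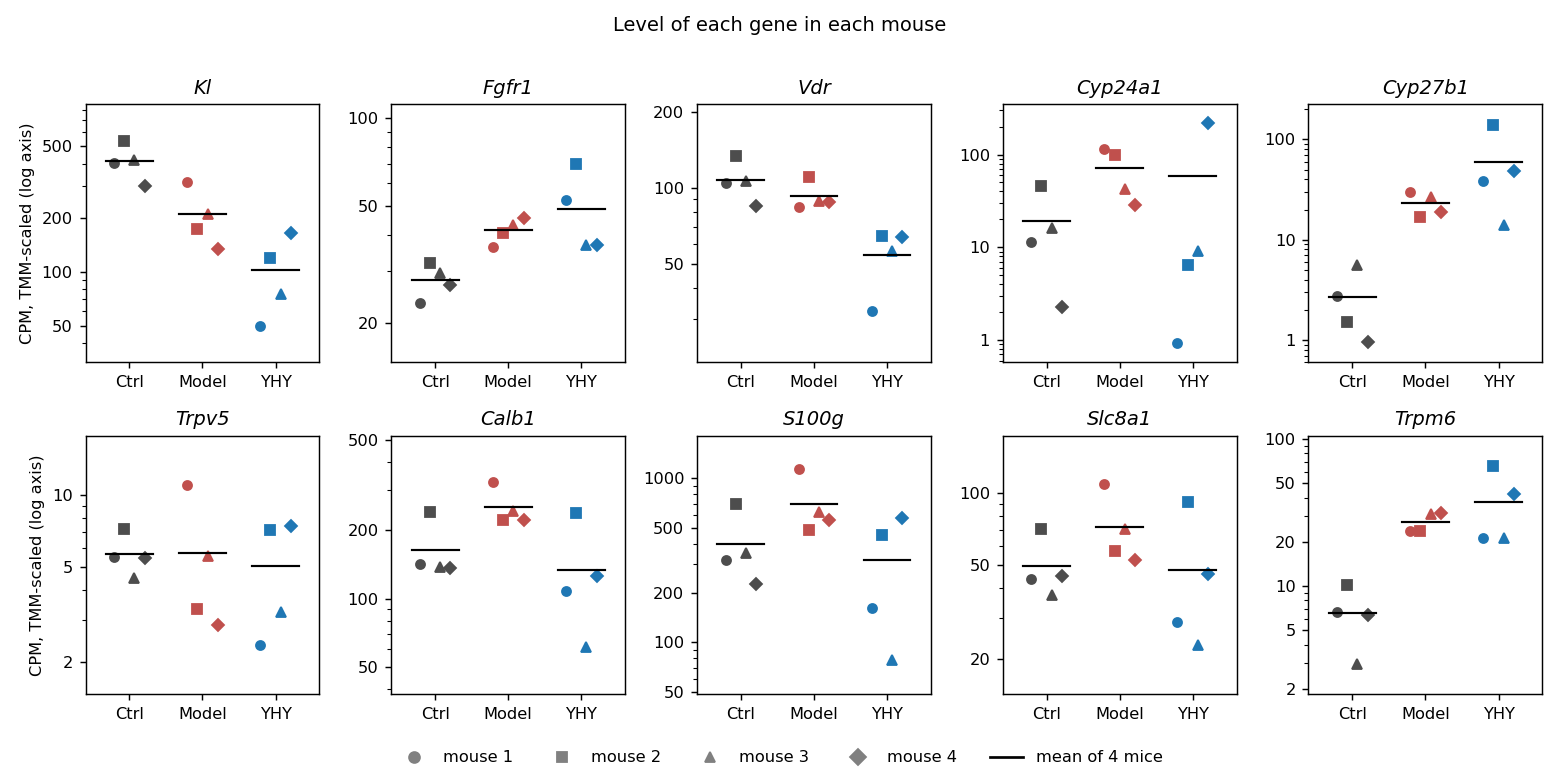
Level of each gene in each mouse as TMM-scaled CPM on a log axis, with the mean of 4 mice as a line and a marker shape for each mouse number. Kl steps down from 415 to 209 and 102 CPM, Trpm6 and Cyp27b1 lie higher in all db/db mice than in all Ctrl mice, and Cyp24a1 spreads 237-fold among the YHY mice.

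Vdr (ENSMUSG00000022479, chr15:97752306-97808511, strand −) encodes the nuclear receptor of active vitamin D. Its level was 105, 134, 106 and 84.4 CPM in Ctrl 1 to 4, 84.1, 111, 88.6 and 88.0 CPM in Model 1 to 4, and 32.4, 64.6, 55.9 and 64.0 CPM in YHY 1 to 4. Ctrl and Model mice overlapped, whereas all YHY mice were below all others. Means were 107 ± 20.4, 92.8 ± 12.0 and 54.2 ± 15.1 CPM (SD, n = 4). Vdr fell in YHY against Model with a log2 fold change of −0.78 (SE 0.20, −1.21 to −0.34, edgeR adjusted P = 0.0215), a 1.71-fold lower level seen in 4 of 4 mice, with an exact permutation P of 0.0286. The difference in Model against Ctrl was −0.21 and did not pass (edgeR adjusted P = 0.442), although library size alone gave −0.64 (edgeR adjusted P = 0.0121, in a range from 0.0121 to 0.779), and it was −0.09 without Ctrl 2 and −0.36 without Ctrl 4. YHY against Ctrl gave −0.99 (edgeR adjusted P = 0.000881) with 4 of 4 mice below the lowest Ctrl mouse. The call in YHY against Model was lost without Model 2 at −0.68 and without Model 3 at −0.80, where edgeR's adjusted P was 0.0612 and 0.0508, in a range from 0.0041 to 0.0612.

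Cyp27b1 (ENSMUSG00000006724, chr10:126884119-126888875, strand +) encodes the enzyme that makes active vitamin D, and with all 12 mice it had the largest fold change of the 10 genes in Model against Ctrl. Its level was 2.76, 1.50, 5.56 and 0.956 CPM in Ctrl 1 to 4, 29.8, 17.0, 26.4 and 18.9 CPM in Model 1 to 4, and 38.6, 139.7, 14.2 and 48.3 CPM in YHY 1 to 4. All db/db mice were above all Ctrl mice, and the YHY mice lay on both sides of the Model mice, with YHY 2 far above them and YHY 3 below. Means were 2.69 ± 2.05, 23.0 ± 6.09 and 60.2 ± 54.9 CPM (SD, n = 4). Cyp27b1 rose 8.51-fold in Model against Ctrl, a log2 fold change of 3.09 (SE 0.59, 1.83 to 4.35, edgeR adjusted P = 0.000813), in 4 of 4 mice and with an exact permutation P of 0.0286. It was called in all 12 fits that left out 1 mouse and under all 9 other settings of scaling, filter, samples and tool, and was highest without Ctrl 3, at 3.67.

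In YHY against Model the Cyp27b1 level was higher by a log2 fold change of 1.38 (0.23 to 2.53, unadjusted P = 0.0216 by edgeR), in 3 of 4 mice, and did not pass adjustment (edgeR adjusted P = 0.105). It was 1.71 without YHY 3 (edgeR adjusted P = 0.0311) and 0.55 without YHY 2 (edgeR adjusted P = 0.493), so the call turned on which treated mouse was included. Testing all genes with at least 1 count gave 1.36 (edgeR adjusted P = 0.00355), in a range from 0.00355 to 0.493. YHY against Ctrl gave 4.47, a 22.2-fold higher level in 4 of 4 mice (edgeR adjusted P = 2.81e-05), and 3.63 without YHY 2.

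Cyp24a1 (ENSMUSG00000038567, chr2:170324628-170339065, strand −) encodes the enzyme that inactivates vitamin D, and in every group it had the largest ratio of the highest to the lowest mouse. Its level was 11.5, 46.0, 16.2 and 2.25 CPM in Ctrl 1 to 4, 116, 98.2, 42.4 and 28.5 CPM in Model 1 to 4, and 0.916, 6.47, 9.12 and 217 CPM in YHY 1 to 4. Of the treated mice 3 lay below every Model mouse, while YHY 4 lay above every other mouse of the study, and Ctrl 2 reached into the Model range. Means were 19.0 ± 18.9, 71.3 ± 42.4 and 58.4 ± 106 CPM (SD, n = 4), and the highest YHY mouse was 237-fold above the lowest. With TMM factors, the filter and all 12 mice neither planned comparison passed, with a log2 fold change of 1.91 in Model against Ctrl (−0.47 to 4.30, edgeR adjusted P = 0.194) and −0.29 in YHY against Model (−2.58 to 2.01, edgeR adjusted P = 0.901). YHY against Ctrl gave 1.63 (edgeR adjusted P = 0.239). Model against Ctrl was called with no filter beyond 1 count, at 1.89 (edgeR adjusted P = 0.0184), and with only the 8 mice compared, at 1.90 (edgeR adjusted P = 0.0267). YHY against Ctrl was called with no filter beyond 1 count (edgeR adjusted P = 0.0399). The intervals span both large and absent differences, so these data do not show that Cyp24a1 was alike in the groups.

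The YHY against Model value of Cyp24a1 was set by YHY 4. Without that mouse the log2 fold change was −3.70 (edgeR adjusted P = 0.0110), whereas it was 0.03 without Model 1, 0.12 without YHY 1, 0.08 without YHY 2 and 0.07 without YHY 3. Leaving YHY 4 out also turned YHY against Ctrl to −1.79, and brought Model against Ctrl, still at 1.91, under the threshold (edgeR adjusted P = 0.0392). The authors' own group means omit 3 mice, Ctrl 2, Model 1 and YHY 4. A fit of the 9 mice behind those means gave −3.34 in YHY against Model (edgeR adjusted P = 0.0154) and 2.43 in Model against Ctrl (edgeR adjusted P = 0.0160). Over all alternatives edgeR's or DESeq2's adjusted P ran from 0.0110 to 0.992 in YHY against Model and from 0.0160 to 0.349 in Model against Ctrl. Cyp24a1 overlaps Pfdn4 on the other strand, which held 15.8, 14.9 and 10.9 CPM in Ctrl, Model and YHY, and whether strand was used in counting is not given in the sources used here.

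Within a library, the log2 ratio of Cyp24a1 to Cyp27b1 counts per kb compares the RNA of the 2 enzymes, not their activity, and does not depend on scaling. It was 1.58, 4.44, 1.07 and 0.75 in Ctrl 1 to 4, 1.49, 2.06, 0.22 and 0.12 in Model 1 to 4, and −5.81, −4.89, −1.10 and 1.70 in YHY 1 to 4. All Ctrl and Model mice had more Cyp24a1 than Cyp27b1 per kb, and YHY 1, YHY 2 and YHY 3 had less. The mean was 1.96 ± 1.69, 0.97 ± 0.96 and −2.52 ± 3.48 (SD, n = 4). The difference of −3.50 in YHY against Model did not pass, with an exact permutation P of 0.143 and 0.245 after adjustment over 12 ratio tests, and 3 of 4 YHY mice lay below the lowest Model mouse. The ratio differed by −0.99 in Model against Ctrl (exact permutation P = 0.371), and by −0.16 without Ctrl 2.

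**Figure D3:**
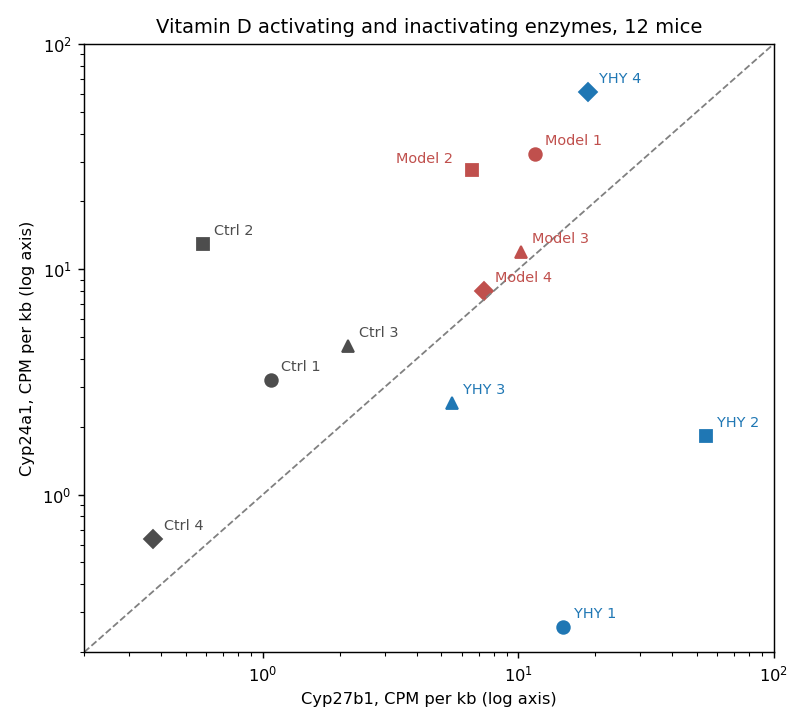
Level of Cyp24a1 against Cyp27b1 in each of the 12 mice, both as CPM per kb on log axes, with a dashed line where they are equal. Ctrl and Model mice lie above the line, and of the YHY mice 3 lie below it and YHY 4 above it, with log2 ratios of −5.81, −4.89, −1.10 and 1.70.

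With TMM factors, the filter and all 12 mice edgeR called none of the calcium genes in the planned comparisons, while some other settings did. Calb1 (ENSMUSG00000028222, chr4:15881264-15908064, strand +) encodes a calbindin that ferries calcium through distal tubule cells. Its level was 142, 241, 137 and 136 CPM in Ctrl 1 to 4, 324, 221, 243 and 221 CPM in Model 1 to 4, and 108, 239, 61.0 and 126 CPM in YHY 1 to 4. Ctrl mice were tightly grouped except Ctrl 2, which lay among the Model mice as YHY 2 did. Means were 164 ± 51.4, 252 ± 49.2 and 134 ± 75.5 CPM (SD, n = 4). The log2 fold change was 0.62 in Model against Ctrl (−0.05 to 1.29, edgeR adjusted P = 0.134) and −0.92 in YHY against Model (SE 0.32, −1.59 to −0.25, edgeR adjusted P = 0.0673), the latter with 3 of 4 mice below the lowest Model mouse and an exact permutation P of 0.0857. Several alternatives did call Calb1 in YHY against Model, namely DESeq2 at −0.91 (adjusted P = 0.0263 by DESeq2), library size alone at −1.03 (edgeR adjusted P = 0.0335) and no filter beyond 1 count at −0.94 (edgeR adjusted P = 0.00567), in a range from 0.00567 to 0.162. Without YHY 2 it was −1.36 (edgeR adjusted P = 0.00823), and YHY against Ctrl went from −0.30 (edgeR adjusted P = 0.454) to −0.74 (edgeR adjusted P = 0.0325). Leaving out Ctrl 2 moved YHY against Ctrl the other way, to −0.06. Fitting only the 8 mice compared called Calb1 in Model against Ctrl at 0.60 (edgeR adjusted P = 0.0264, in a range from 0.0264 to 0.520).

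S100g (ENSMUSG00000040808, chrX:161744988-161747595, strand −) encodes a smaller calbindin. Its level ran from 227 to 700.3 CPM in Ctrl, from 485 to 1133 CPM in Model and from 77.5 to 573 CPM in YHY, so all 3 groups overlapped. The log2 fold change was 0.81 in Model against Ctrl (edgeR adjusted P = 0.207), −1.15 in YHY against Model (edgeR adjusted P = 0.137, 3 of 4 mice below the lowest Model mouse) and −0.34 in YHY against Ctrl (edgeR adjusted P = 0.593). YHY against Model was called without YHY 4, at −1.61 (edgeR adjusted P = 0.0418), and with no filter beyond 1 count, at −1.17 (edgeR adjusted P = 0.0117), in a range from 0.0117 to 0.330. Model against Ctrl was 0.42 without Model 1 and 1.23 without Ctrl 2, and YHY against Ctrl changed sign without Ctrl 2, to 0.08. The gene overlaps Ctps2 on the other strand, which held 21.4, 28.0 and 32.8 CPM in the 3 groups, far under the S100g level.

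Slc8a1 (ENSMUSG00000054640, chr17:81680534-82045806, strand −) encodes the exchanger that moves calcium out of the cell toward the blood. Its level ran from 37.5 to 70.8 CPM in Ctrl, from 52.5 to 109 CPM in Model and from 22.9 to 92.1 CPM in YHY. The log2 fold change was 0.56 in Model against Ctrl (edgeR adjusted P = 0.234), −0.61 in YHY against Model (edgeR adjusted P = 0.276) and −0.06 in YHY against Ctrl (edgeR adjusted P = 0.908). Without Model 1, Model against Ctrl was 0.23 and YHY against Model was −0.36. Here too YHY 2 stood out, since without it YHY against Model was −1.16 and was called (edgeR adjusted P = 0.0251, in a range from 0.0251 to 0.606). The near-zero value against Ctrl became 0.16 without Ctrl 2, 0.12 without YHY 1 and 0.17 without YHY 3.

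Trpv5 (ENSMUSG00000036899, chr6:41629107-41657703, strand −) encodes the channel through which calcium enters distal tubule cells, and it had a low level in every group. It ran from 4.48 to 7.18 CPM in Ctrl, from 2.86 to 11.0 CPM in Model and from 2.37 to 7.40 CPM in YHY, with the Ctrl range inside the Model range. The log2 fold change was 0.02 in Model against Ctrl (−0.86 to 0.89, edgeR adjusted P = 0.979), −0.19 in YHY against Model (−1.08 to 0.70, edgeR adjusted P = 0.819) and −0.17 in YHY against Ctrl (edgeR adjusted P = 0.756). Its sign followed single mice. Model against Ctrl became −0.59 without Model 1, −0.04 without Ctrl 1, −0.12 without Ctrl 3 and −0.04 without Ctrl 4, and −0.35 under library size alone. YHY against Model became 0.34 without Model 1 and 0.04 without YHY 1, and YHY against Ctrl became 0.06 without YHY 1.

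Trpm6 (ENSMUSG00000024727, chr19:18727347-18869875, strand +) encodes the channel through which the distal convoluted tubule takes up magnesium. Its level was 6.63, 10.2, 2.96 and 6.33 CPM in Ctrl 1 to 4, 23.7, 23.6, 31.1 and 31.3 CPM in Model 1 to 4, and 21.2, 65.5, 21.1 and 42.2 CPM in YHY 1 to 4. Every db/db mouse had more than any Ctrl mouse, the Model mice were close together, and the YHY mice lay on both sides of them. Means were 6.53 ± 2.96, 27.4 ± 4.33 and 37.5 ± 21.1 CPM (SD, n = 4). Trpm6 rose 4.21-fold in Model against Ctrl, a log2 fold change of 2.07 (SE 0.37, 1.30 to 2.85, edgeR adjusted P = 0.000435), in 4 of 4 mice and with an exact permutation P of 0.0286. It was called in all 12 fits that left out 1 mouse, at 1.78 to 2.36, and under all 9 other settings. In YHY against Model the difference of 0.45 did not pass (−0.29 to 1.19, edgeR adjusted P = 0.433) and was 0.04 without YHY 2, and YHY against Ctrl gave 2.52, a 5.74-fold higher level in 4 of 4 mice (edgeR adjusted P = 4.61e-05).

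**Figure D4:**
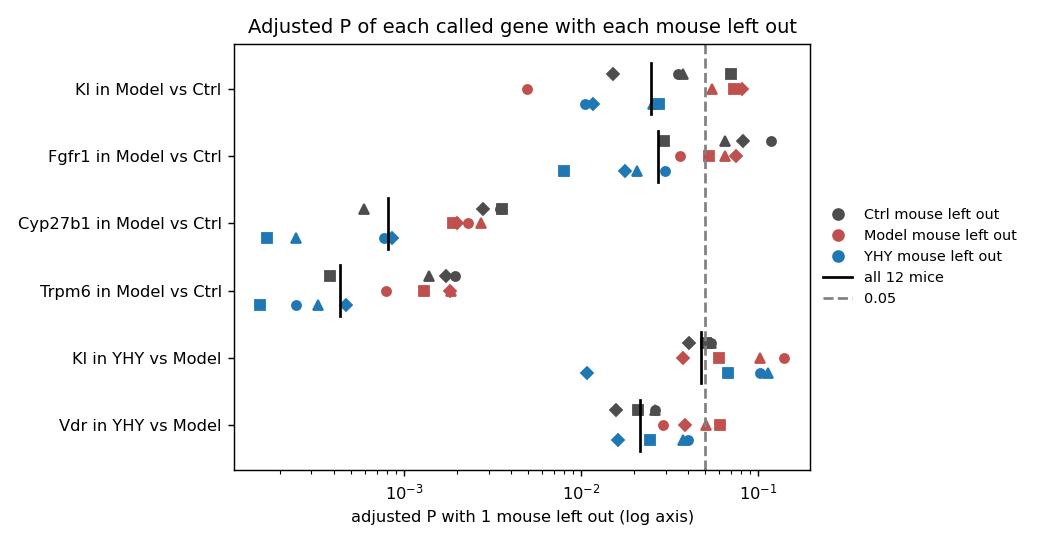
Adjusted P from edgeR for each call in the planned comparisons with 1 mouse left out at a time, on a log axis, with marker shapes for mouse numbers as in the plot of levels, a black line for the fit of all 12 mice and a dashed line at 0.05. Cyp27b1 and Trpm6 stay left of the dashed line throughout, whereas Kl in YHY against Model is left of it in 3 of 12 fits.

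The calcium and magnesium genes were also set against Slc12a3, the salt transporter of the distal convoluted tubule, in the same library. Slc12a3 itself rose in Model against Ctrl with a log2 fold change of 1.33 (edgeR adjusted P = 0.000256), from a mean of 139 CPM to 349 CPM, and stood at 337 CPM in YHY. Of the 9 listed markers of that segment 4, Slc12a3 among them, rose in Model against Ctrl, and 2, Egf (−1.01) and Sgms2 (−0.63), fell. Relative to Slc12a3 the calcium genes were lower in most Model mice. Their own log2 fold changes in Model against Ctrl ran from 0.02 for Trpv5 to 0.81 for S100g, so these ratios include the rise of Slc12a3. The log2 ratio of Calb1 to Slc12a3 counts per kb was 1.27, 1.53, 1.50 and 1.42 in Ctrl 1 to 4, 1.53, 0.39, 0.65 and 0.36 in Model 1 to 4, and −0.29, 0.24, −1.12 and 0.07 in YHY 1 to 4. Model 1 sat at the Ctrl level, the other Model mice below all Ctrl mice, and all YHY mice below all Model mice. The ratio of Calb1 differed by −0.70 in Model against Ctrl (exact permutation P = 0.114) and by −1.01 in YHY against Model (exact permutation P = 0.0286), where the adjusted value over 12 ratio tests was 0.171.

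For Trpv5 the ratio to Slc12a3 averaged −2.82 ± 0.13 over Ctrl mice, −4.34 ± 1.14 over Model mice and −4.41 ± 0.76 over YHY mice (SD, n = 4), and for Slc8a1 it was −2.26 ± 0.11, −3.07 ± 0.75 and −3.77 ± 0.66. Model 1 lay within the Ctrl range for Trpv5 at −2.78 and above every Ctrl mouse for Slc8a1 at −2.004, while the other Model mice were below all Ctrl mice for both. For S100g it was 5.96 ± 0.41, 5.48 ± 0.82 and 4.07 ± 1.28. Trpm6 went the other way, from −3.97 ± 0.48 in Ctrl to −3.13 ± 0.26 in Model and −2.78 ± 0.62 in YHY, a difference of 0.84 in Model against Ctrl with 4 of 4 mice above the highest Ctrl mouse (exact permutation P = 0.0286, 0.171 after adjustment). After Benjamini-Hochberg adjustment 0 of the 12 exact permutation tests of ratios passed 0.05, and no other tool was run on them. The smallest P that 4 against 4 mice allow is 0.0286, so a few fully separated ratios could not pass. With Umod in place of Slc12a3 the Model against Ctrl differences were 2.72 for Trpv5, 3.54 for Calb1, 3.76 for S100g and 3.43 for Slc8a1, so their direction depends on the reference gene. Umod itself, a marker of the thick ascending limb, fell in Model against Ctrl with a log2 fold change of −2.86 (edgeR adjusted P = 5.43e-05). That fall enters the differences with Umod as reference. Wnk1, a listed marker of the distal convoluted tubule, rose with 0.69. With Wnk1 in place of Slc12a3 the direction in Model against Ctrl changed for S100g alone.

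**Figure D5:**
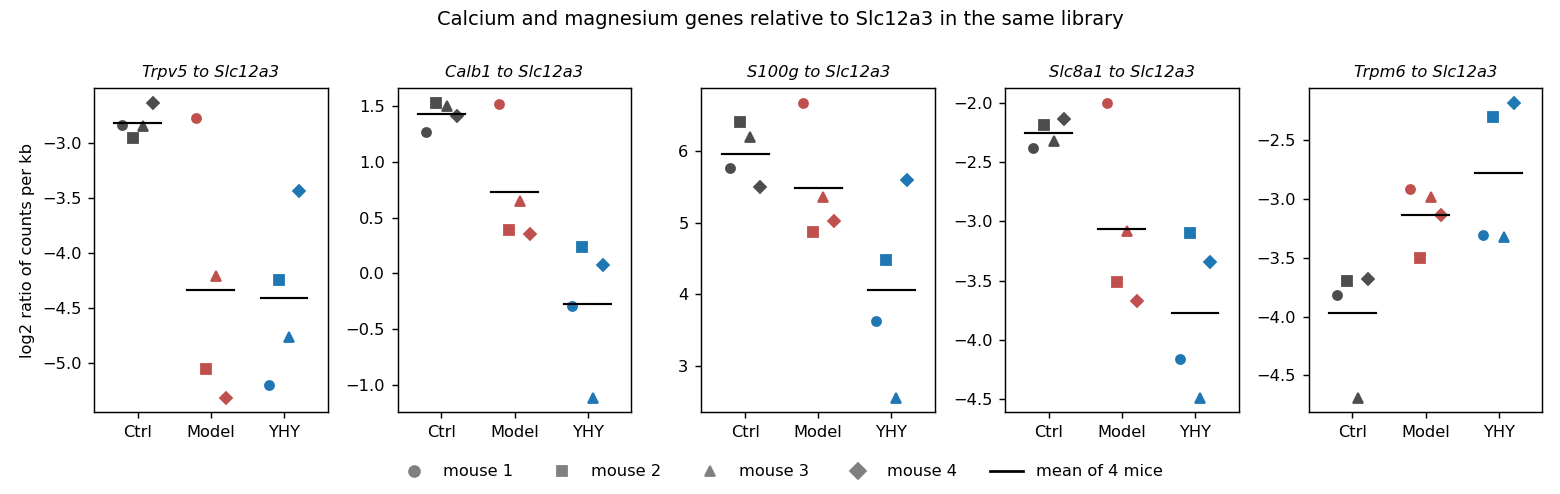
Log2 ratio of counts per kb of each calcium or magnesium gene to Slc12a3 in the same library, by mouse and group, with the mean of 4 mice as a line. Calb1 has means of 1.43, 0.73 and −0.28 in Ctrl, Model and YHY and Trpm6 has −3.97, −3.13 and −2.78, directions that reverse for Calb1 in Model against Ctrl (3.54) with Umod as the reference. Slc12a3 itself rose in Model against Ctrl with a log2 fold change of 1.33.

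Per kb of gene length, S100g was the most abundant of the 10 genes in every group, at a mean of 831 CPM per kb for Ctrl, 1459.8 for Model and 658 for YHY. In Ctrl it was followed by Kl (44.5 CPM per kb), Calb1 (33.9), Vdr (19.0), Cyp24a1 (5.34), Fgfr1 (2.84), Slc8a1 (2.62), Trpv5 (1.74), Cyp27b1 (1.05) and Trpm6 (0.846). Neighbours did not differ by more than the larger of their SDs for Kl and Calb1, for Cyp24a1, Fgfr1 and Slc8a1 in turn, and for Trpv5, Cyp27b1 and Trpm6 in turn. In Model the order after S100g was Calb1 (52.0 CPM per kb), Kl (22.4), Cyp24a1 (20.0), Vdr (16.4), Cyp27b1 (8.94), Fgfr1 (4.21), Slc8a1 (3.85), Trpm6 (3.55) and Trpv5 (1.75). The neighbours within the SD there were Kl, Cyp24a1 and Vdr, and Fgfr1, Slc8a1 and Trpm6. In YHY the order after S100g was Calb1 (27.6 CPM per kb), Cyp27b1 (23.4), Cyp24a1 (16.4), Kl (11.0), Vdr (9.60), Fgfr1 (4.97), Trpm6 (4.86), Slc8a1 (2.52) and Trpv5 (1.55). There the gap between neighbours exceeded the larger SD only from S100g to Calb1 and from Vdr to Fgfr1. Single mice carried some of these means. Without YHY 4 the Cyp24a1 mean in YHY was 1.55 CPM per kb, next to last, and without YHY 2 the Cyp27b1 mean was 13.1, after Cyp24a1 and Calb1. In Ctrl the Cyp24a1 mean was 2.81 without Ctrl 2, and the Cyp27b1 mean was 0.675 and last without Ctrl 3.

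Certain mice were the highest of their group for several of the 10 genes, which is given as a description without a test. Ctrl 2 had the highest level of its group for 9 of the 10 genes, all but Cyp27b1, beside 32.5% of all genes tested. Model 1 was highest for 7, beside 31.7% of all genes, and lowest for Fgfr1 and Vdr. Among treated mice YHY 2 was highest for 6, Fgfr1, Vdr, Cyp27b1, Calb1, Slc8a1 and Trpm6 (28.3% of all genes), and YHY 4 for the other 4 (31.5%). Ctrl 4 was lowest of its group for 6 genes, beside 29.7% of all genes, and YHY 3 for 6, beside 22.7%. Ctrl 2 and YHY 2 also had the highest mitochondrial shares of their groups, 22.7% and 64.6%, and Model 1 the lowest of its own, 41.2%, and the part of these shares in the levels was not tested.

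As a description, the genes whose deviations from the group means were most like those of 4 of the members were listed by Pearson r over 12 mice, among 10586 genes. For Kl these were Them7 (r = 0.978), Cryl1 (0.978) and Nop16 (0.974), and for Vdr they were Hook2 (0.949), Fhip1b (0.945) and Pbld2 (0.941). For Trpv5 they were Rhoc (0.948), Sugct (0.937) and Fh1 (0.931), and for Trpm6 they were Piga (0.926), Tmed5 (0.919) and Scyl3 (0.916).

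Other genes of the same pathways were counted under TMM scaling from lists that exclude the 10 genes. The counts stand beside 19.6% of all genes tested higher and 18.5% lower in Model against Ctrl, and 5.63% higher and 7.62% lower in YHY against Model, and no list was tested for more calls than that. Casr and Pth1r are in both the klotho and the calcium list, and Cldn16 and Cldn19 in both the calcium and the magnesium list, so their calls are counted in each. Of 7 other klotho and FGF23 genes tested, 1 rose and 3 fell in Model against Ctrl, and 0 rose and 1 fell in YHY against Model by edgeR. Galnt3 and Fam20c, whose products modify FGF23, fell in Model against Ctrl, with log2 fold changes of −1.34 and −1.11, and Fgfr3 rose with 0.61. Pth1r, the parathyroid hormone receptor, fell in YHY against Model with −0.89 (edgeR adjusted P = 0.0154) and was the most abundant gene of that list, and Fgf23 itself had a count of 0 in every mouse. Of 14 other vitamin D genes, 4 rose and 6 fell in Model against Ctrl, and 1 rose and 1 fell in YHY against Model. Those that rose included Gc, the vitamin D binding protein, at 3.39, Fdxr at 1.76 and Cyp27a1 at 1.33. Those that fell included Lrp2, the receptor that takes up the binding protein, at −1.68, Pdia3 at −1.28 and Fdx1, the electron donor of these enzymes, at −1.22. Rxra, the partner of VDR, fell together with Vdr in YHY against Model, at −0.62 (edgeR adjusted P = 0.0239), and Ncor1 rose at 0.62.

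Of 17 other calcium genes tested, 2 rose and 6 fell in Model against Ctrl, and 1 rose and 3 fell in YHY against Model. Wnk4 rose with a log2 fold change of 1.35 and Atp2b4, a calcium pump, with 0.74, while Umod, Cldn2 (−1.67) and Cldn16 (−1.29), which belong to other tubule segments, fell. Pvalb, a calcium buffer of the distal convoluted tubule, fell in YHY against Model with −1.59, as did Cldn2 with −1.17, and Atp2b1 rose with 0.50. Of 25 other magnesium genes, 3 rose and 10 fell in Model against Ctrl, and 3 rose and 3 fell in YHY against Model. Cnnm1 rose in Model against Ctrl beside Trpm6, with a log2 fold change of 1.03, and Slc41a2 (−1.37), Kcnj16 (−1.28) and Mrs2 (−0.80) fell. Trpm7, the closest relative of Trpm6, rose in Model against Ctrl with a log2 fold change of 0.85 (edgeR adjusted P = 0.0115) and in YHY against Model with 0.83. Mrs2 (0.51) and Cnnm3 (0.52) rose in YHY against Model too, while Magt1 (−0.62), Pcbd1 (−0.73) and Fxyd2 (−0.66) fell.

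Markers of the tubule segments that use these genes were given beside them, and their part in the results was not tested. The summed level of 9 markers of the distal convoluted tubule was 1497, 1623, 1687 and 1489 CPM in Ctrl 1 to 4, 1704, 1762.5, 1725 and 1870.1 CPM in Model 1 to 4, and 1556, 1902, 1921 and 1528 CPM in YHY 1 to 4, with Egf the most abundant in Ctrl and YHY and Ppp1r1a in Model. In Model against Ctrl 4 of these 9 rose and 2 fell, and in YHY against Model 0 rose by edgeR and 2 fell. The 9 markers of connecting tubule and principal cells summed to 1004, 697, 703 and 1613 CPM in Ctrl 1 to 4, 615, 376, 453 and 445 CPM in Model 1 to 4, and 823, 371, 499 and 309.9 CPM in YHY 1 to 4, with Aqp2 the most abundant. Of 8 tested, 1 rose and 3 fell in Model against Ctrl.

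The 11 proximal tubule markers, of the segment of Cyp27b1, summed to 9927, 12597, 10590.3 and 8282 CPM in Ctrl 1 to 4, 7754, 7572, 8079 and 6339 CPM in Model 1 to 4, and 3865, 6360.2, 4517 and 7621 CPM in YHY 1 to 4, with Slc27a2 the most abundant. Their group means were 10349, 7436 and 5591 CPM, an order of the sum that not every marker shared. Hnf4a, for example, had means of 433, 450 and 234 CPM in Ctrl, Model and YHY. Of the 11, 0 rose by edgeR and 4 fell in Model against Ctrl, and 0 rose and 1 fell in YHY against Model. In YHY against Ctrl 1 of them rose and 8 fell, beside 26.1% and 24.2% of all genes. In that comparison 3 distal convoluted tubule markers rose and 4 fell, and 2 of connecting tubule and principal cells rose and 3 fell. Of the thick ascending limb 0 rose by edgeR and 3 fell, and of intercalated cells 1 rose and 0 fell. Slc34a1 had means of 2041, 2126 and 1856 CPM in the 3 groups. The 7 markers of the thick ascending limb summed to 2154 ± 612, 1119 ± 213 and 1534 ± 614 CPM (SD, n = 4), with Umod the most abundant in Ctrl and Slc12a1 in Model and YHY, and 4 of 7 fell in Model against Ctrl. The 7 intercalated cell markers summed to 226 ± 41.6, 184 ± 39.7 and 189 ± 31.5 CPM, with Atp6v1b1 the most abundant in Ctrl and YHY and Slc26a4 in Model, and 1 of 7 was lower in Model against Ctrl and 1, Kit, higher in YHY against Model.

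Markers of other cell types were summed likewise. Podocyte markers summed to 150.2 ± 21.6, 210.5 ± 74.7 and 145.5 ± 45.8 CPM (SD, n = 4), with 4 of 7 higher in Model against Ctrl. Endothelial markers summed to 305, 340 and 334 CPM with 2 of 7 higher, stromal markers to 324, 330 and 336 CPM with 3 of 8 higher, and immune markers to 120, 173 and 249.6 CPM with 1 higher and 1 lower of 6 tested. In each group Podxl, Plvap and Lyz2 were the most abundant of the podocyte, endothelial and immune markers, and of the stromal markers it was Ren1 in Ctrl and Model and Pdgfra in YHY. Adrenal markers summed to 2.42, 16.3 and 15.9 CPM, with Star the most abundant in Ctrl and Hsd3b1 in Model and YHY, with 2 of 2 tested higher in Model against Ctrl and Cyp11b2 at 0 in every mouse. Blood markers, with Hba-a1 the most abundant, summed to 459, 369 and 671 CPM, with 1 higher and 4 lower of 6 in Model against Ctrl, and 2, Alas2 at 1.71 and Hbb-bs at 1.29, higher in YHY against Model (edgeR adjusted P = 0.0274 and 0.0280). Fat markers, chiefly Fabp4, summed to 53.9, 55.3 and 65.5 CPM and muscle markers, chiefly Mylpf, to 1.25, 2.28 and 1.36 CPM, and 0 of the 2 and 0 of the 1 tested were called by edgeR in Model against Ctrl.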

How the data were processed

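The authors deposited raw counts of reads per gene for 12 mice, which were used here. Their comparison tables hold a signal, the authors' group means of counts divided by a factor per library, used only to find that each mean covers 3 mice. Their fold changes, p-values, KEGG tables and 12 per-mouse columns were not used here. The submitters' processing notes name FastQC 0.11.9, Trimmomatic 0.39, HISAT2 2.2.1, SAMtools 1.12, featureCounts 2.0.1, DESeq2 1.34.0, R 4.1.2 and GRCm39.

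The two-sided test of edgeR 4.0.16 (R 4.3.3) used TMM, filterByExpr, glmQLFit and glmQLFTest with a prior count of 0.125 and no covariates, after a trial on simulated data. Single genes were compared by exact two-sided permutation of 4 against 4 mice, and ratios used (count + 1) per kb. Alternatives were DESeq2 1.42.0, upper-quartile factors, library size alone, TMM without mitochondrial-genome genes, no filter beyond 1 count, at least 10 counts in every sample, only the 8 mice compared, the 9 mice of the authors' means, replicate number as a block, the paper's limits, each mouse left out, and for ratios Umod or Wnk1 as reference or 0.5 added.

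Of each pathway or marker list at most 3 genes with the smallest P per direction among those called are named, with the references Slc12a3, Umod, Slc34a1 and Lrp2. Genes at 0, most abundant in a list or overlapping a member were named after their values were seen. The members and lists were chosen with earlier results of these data known. The limit of 3 counts covers counting error only, and replicates differed beyond it (chi-square 17.3 to 139 per degree of freedom).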

Additional observations from a re-analysis of the deposited data

Results flagged for a closer look

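In each group of 4 mice, the gap between the highest or lowest mouse and its nearest neighbour was divided by the range of the group. Of 51 groups looked at, 6 had a gap beyond Dixon's critical value, and chance alone marks about 1 in 20 groups. The share was 0.83 for Vdr in Model, where Model 2 was highest, 0.962 for Cyp24a1 in YHY, where YHY 4 was highest, and 0.945 for Calb1 in Ctrl, where Ctrl 2 was highest. It was 0.861 for the log2 ratio of Trpm6 to Slc12a3 in Ctrl, where Ctrl 3 was lowest. For the mitochondrial share of counts it was 0.962 in Ctrl, where Ctrl 2 was highest, and 0.933 in YHY, where YHY 2 was highest. The cause of these gaps was not tested.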

How the results depend on the processing

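Of the fold changes of the 10 genes in 3 comparisons, 243 under other settings and 316 with 1 mouse left out kept their direction and their side of the threshold, while 5 and 21 lost the call, 14 and 7 gained one and 8 and 16 changed sign. The number called in YHY against Model was 2 with all mice (13.3% of all genes), 5 without a filter beyond 1 count (8.16%), 1 with only the 8 mice compared (8.42%), 5 at the paper's limits (28.6%) and 0 to 4 with 1 mouse left out (6.34% to 15.3%). With only the 8 mice compared it was 6 in Model against Ctrl (46.4% of all genes), against 4 with all mice (38.04%). With 1 mouse left out it ran from 2 to 5 in Model against Ctrl (29.3% to 39.9%) and from 5 to 6 in YHY against Ctrl (43.9% to 50.2%). With replicate number as a block it was 3, 2 and 5 in Model against Ctrl, YHY against Model and YHY against Ctrl. The shares of all genes called were then 36.1%, 11.0% and 48.3%. Kl was then not called, at −0.98 (edgeR adjusted P = 0.0510) and −1.05 (edgeR adjusted P = 0.0924) in the planned comparisons, Calb1 was called in YHY against Model at −1.07 (edgeR adjusted P = 0.0293), and the numbers do not pair mice (r between deviations of mice with the same number −0.28 to 0.25).

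Some signs changed. Trpv5 in Model against Ctrl was −0.35 with library size alone, −0.0052 without a filter beyond 1 count and −0.45 in the 9 mice of the authors' means, and −0.59 to 0.24 with 1 mouse left out. It was 0.10 in YHY against Model in those 9 mice, with −0.45 to 0.34 when 1 mouse was left out, and −0.43 to 0.060 in YHY against Ctrl. Cyp24a1 ran from −3.70 to 0.12 in YHY against Model and from −1.79 to 2.54 in YHY against Ctrl, where the 9 mice gave −0.91. S100g in YHY against Ctrl ran from −0.80 to 0.075. Slc8a1 in YHY against Ctrl ran from −0.60 to 0.17 and was 0.050 with upper-quartile factors, 0.00067 with at least 10 counts in every sample and 0.12 in the 9 mice. With Umod as reference the Model against Ctrl ratios were 2.72 for Trpv5, 3.54 for Calb1, 3.76 for S100g and 3.43 for Slc8a1, and Trpm6 in YHY against Model was −0.62. With Wnk1 S100g was 0.16 in Model against Ctrl. The Trpv5 ratio to Slc12a3 in YHY against Model ran from −0.40 to 0.45 with 1 mouse left out. Where the setting itself does not show it, the cause was not tested. Each gene had more than 3 counts in every mouse, and whether depth limits the calls was not tested.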
